A study of Mus musculus with 12 samples.

Results

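Complement genes were described in colon tumor biopsies of the mouse, in a set of 9 genes: C1qa, C1qb, C1qc, C4b, C3, Cfb, the receptors C3ar1 and C5ar1, and the inhibitor Cd55. A gene was taken where its probe set carries that gene symbol and no other, and where a gene had more than 1 such probe set the one with the highest mean over the 12 arrays would have been kept. This gave 8 of the 9 genes, among 19938 genes in all, each with exactly 1 probe set. C3 carries no probe set in the annotation used and was not analysed here. Within the list, probe sets were chosen by their mean level over all arrays. The list itself was selected on earlier results of the same arrays, the late minus early changes and the differences between final readings, and these values are given as a description. The genes were proposed with earlier results of these arrays known, among them the difference of C5ar1 between late and early adenoma biopsies, so no count over the 8 genes is independent evidence.

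All mice were F1 hybrids of SWR females and C57BL/6 males and carried Apc Min/+, a germline mutation in 1 copy of the Wnt pathway suppressor Apc. Around weaning all drank 4% dextran sodium sulfate, a sulfated polysaccharide toxic to colon epithelium, in 2 courses of 4 days with 17 days of plain water between, so no array comes from an untreated or normal colon. Each of 6 mice gave an early and a late biopsy of 1 tumor, 12 arrays in all, and tumor and mouse cannot be told apart. Late biopsies came from 3 tumors read as intramucosal carcinoma (mice 2201, 3407 and 3413, aged 200 to 267 days) and from 3 read as adenoma (mice 1755, 1803 and 1805, aged 234 to 395 days). Early biopsies, taken at 87 to 117 days in the tumors later read as carcinoma and at 86 to 94 days in those later read as adenoma, have no reading of their own and are named by the final reading. Values are log2 intensities, on which a difference of 1 is a doubling, and they are compared between arrays but not between genes.

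Complement is a cascade of plasma and tissue proteins that marks microbes and dying cells for removal. The classical pathway opens when C1q, built of A, B and C chains, binds antibody or dying cells and the complex then cleaves C4. The alternative pathway amplifies C3 cleavage through factor B, and the released fragments C3a and C5a act on receptors of myeloid cells. CD55 on the cell surface speeds the decay of the convertases and so spares host cells. In the gut, tissue macrophages are a main source of C1q, whereas factor B is also made by epithelium under inflammatory signals.

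The C1q chain genes are neighbours in the mouse genome and ran together over these arrays, and C3ar1 ran closest to C1qc among them. The promoter bases of C1qb, C1qc and C3ar1 are therefore shown, while C1qa had no promoter in the source used. RefSeq promoters (GRCm38.p6) matched 5 of the 8 measured genes (C1qb, C1qc, C3ar1, C5ar1 and Cd55), and the 250 bases before the start of transcription used there are given 5′ to 3′. For C1qc, C5ar1 and Cd55 this start lies inside the RefSeq gene span, which ends upstream at 136892936, 16259540 and 130465009. Bases before any start further upstream were not searched. Capitals mark matches on either strand to GAGGAA, the core bound by the myeloid factor PU.1 and other ETS factors, and to TGANTCA, the AP-1 motif.
C1qb (chr4:136886201-136886450, minus strand): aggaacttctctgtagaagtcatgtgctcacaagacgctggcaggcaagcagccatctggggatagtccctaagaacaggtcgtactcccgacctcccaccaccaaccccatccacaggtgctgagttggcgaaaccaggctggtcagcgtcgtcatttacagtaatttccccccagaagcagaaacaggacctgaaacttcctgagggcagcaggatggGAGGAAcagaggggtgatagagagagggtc
C1qc (chr4:136892915-136893164, minus strand): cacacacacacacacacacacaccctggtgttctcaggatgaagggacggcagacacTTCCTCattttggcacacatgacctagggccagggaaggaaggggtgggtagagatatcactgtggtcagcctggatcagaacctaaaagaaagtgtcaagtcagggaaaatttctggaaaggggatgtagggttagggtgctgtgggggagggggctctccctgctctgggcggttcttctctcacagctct
C3ar1 (chr6:122856158-122856407, minus strand): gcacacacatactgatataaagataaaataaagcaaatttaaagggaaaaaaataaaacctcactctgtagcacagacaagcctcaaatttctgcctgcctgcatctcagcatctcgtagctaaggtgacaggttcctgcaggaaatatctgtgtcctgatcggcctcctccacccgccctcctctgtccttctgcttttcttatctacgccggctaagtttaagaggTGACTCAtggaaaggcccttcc
GAGGAA was found once in C1qb, from 30 to 25 bases before the start on the gene's own strand, and once in C1qc, on the opposite strand from 193 to 188 bases before the start. TGANTCA was found once, in C3ar1, 22 bases before the start. The STAT motif TTCNNNGAA was in none of the 5 promoters, and C5ar1 and Cd55 held none of the 3 motifs in this window. Of 32851 mouse promoters of this length, 23.3% hold GAGGAA, 6.75% TGANTCA and 7.02% TTCNNNGAA. These matches describe letters only.

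Epithelial markers were measured in the labelled tissue. All 9 of 9, including the intestinal factors Cdx1 and Cdx2, had means above the 25th percentile of genes, 6.69 log2. The 3 measured hepatocyte markers also lay above it, so this level does not tell one tissue from another. Array medians lay between 7.62 and 7.80 log2, and each array's median correlation with the others lay between 0.964 and 0.987. The number of arrays limits the precision. The submitters' sample numbers are below 300 for the early arrays of mice 1755, 1803, 1805 and 2201 and above 300 for the other 8. The 50 lowest-numbered probe sets, none of which has a gene symbol, averaged 7.08 to 7.19 log2 on the first 4 arrays and 6.80 to 6.94 on the others. These are called the arrays numbered below and above 300, and the labels do not say what the numbers mark. All late arrays are above 300. The limit is therefore crossed by 4 pairs, those of mice 1755, 1803, 1805 and 2201, and not by the pairs of mice 3407 and 3413.

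The 3 C1q chains followed each other closely. C1qb, the B chain, had 11.81, 10.84 and 11.51 log2 in the late carcinoma biopsies of mice 2201, 3407 and 3413, against 11.11, 10.70 and 10.05 in the late adenoma biopsies of mice 1755, 1803 and 1805. In the early biopsies it had 10.46, 11.05 and 11.50 in the tumors later read as carcinoma, against 10.79, 10.61 and 11.18 in those later read as adenoma. The highest array was the late biopsy of mouse 2201 and the lowest the late biopsy of mouse 1805, and both late groups overlapped each other and their early partners. C1qa, the A chain, spanned 8.63 to 10.31 and C1qc, the C chain, 9.33 to 11.27, each with the same highest and lowest array. Over the 12 arrays, which are 2 per mouse and so not independent, Pearson's r was 0.964 for C1qa with C1qb, 0.973 for C1qb with C1qc and 0.897 for C1qa with C1qc. On the 8 arrays numbered above 300 these were 0.991, 0.996 and 0.991. C1qb lay 0.87 to 1.05 above C1qc on the 4 arrays below 300 and 0.54 to 0.77 above it on the 8 others, so the offset of these probe sets differs between the 2 sets of arrays without overlap.

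Late carcinoma biopsies had more C1q transcript than late adenoma biopsies on average, but no chain passed the test. In limma, C1qa averaged 9.86 ± 0.49 in late carcinoma and 9.06 ± 0.41 in late adenoma (SD, n = 3 each), a difference of 0.80 (SE 0.332, adjusted p = 0.41). The difference was 0.76 for C1qb (SE 0.379, adjusted p = 0.456) and 0.85 for C1qc (SE 0.479, adjusted p = 0.502). Without mouse 1805 the differences were 0.48 for C1qb and 0.56 for C1qc. Fewer cells of a type and less RNA per cell cannot be told apart in whole biopsies. In the early biopsies the differences were -0.05 for C1qa, 0.15 for C1qb and 0.37 for C1qc, with 95% intervals that all span 0.

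The change from early to late did not pass for any C1q chain. C1qa was lower late in 5 of 6 mice, all 3 adenoma mice among them, while C1qb was higher late in 4 of 6 and C1qc in 3 of 6. In mouse 1755 the chains disagreed, at -0.18 for C1qa, 0.32 for C1qb and 0.67 for C1qc. The mean of the 3 chains differed late minus early by 1.502 in mouse 2201, -0.23 in mouse 3407 and -0.01 in mouse 3413 among carcinoma tumors, against 0.27, 0.11 and -1.06 in mice 1755, 1803 and 1805 among adenoma tumors. Mouse 2201 and mouse 1805 thus lie at opposite ends, and the remaining 4 mice lie between -0.23 and 0.27. Over all 6 tumors limma gave -0.03 for C1qa (95% interval -0.63 to 0.57), 0.07 for C1qb (-0.56 to 0.70) and 0.25 for C1qc (-0.51 to 1.00). Without mouse 2201 these were -0.29, -0.18 and -0.08, and without mouse 1805 they were 0.19, 0.31 and 0.49.

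**Figure D1:**
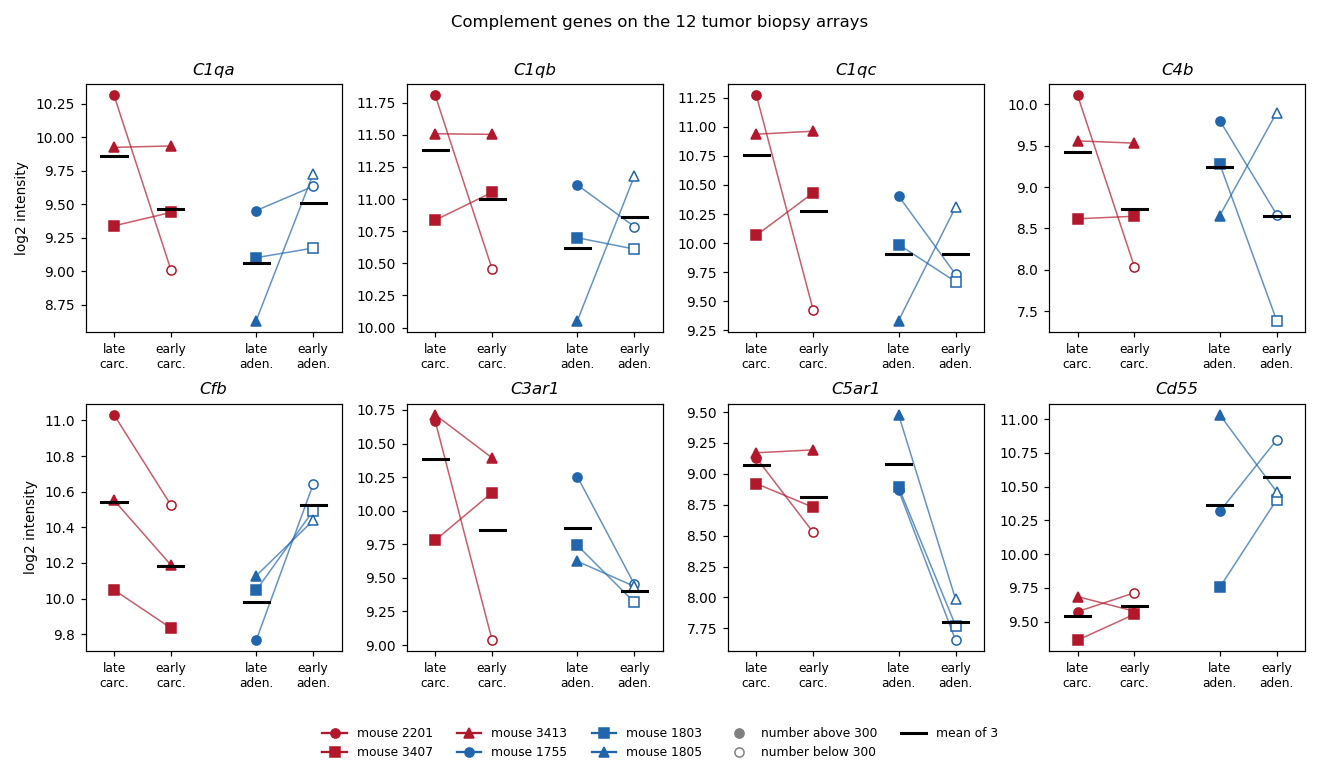
Log2 intensity of the 8 complement genes by group, late biopsies left of early ones and carcinoma tumors left of adenoma tumors; each point is an array, lines join the biopsies of a mouse, bars are means of 3 and open points are arrays numbered below 300. C5ar1 is higher in all 3 late adenoma biopsies (8.87 to 9.48) than in the early ones (7.65 to 7.99), and every carcinoma array of Cd55 (9.36 to 9.71) lies under every adenoma array (9.75 to 11.03).

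Transcripts of macrophages, T cells and dendritic cells moved with C1q, while those of neutrophils did not. Of 14 macrophage and monocyte markers listed, 12 were measured, of which only Cd163 had a mean under the 25th percentile of genes. Their mean level ran from 8.92 to 9.68 log2 in late carcinoma, 8.81 to 9.34 in late adenoma, 8.70 to 9.51 in early carcinoma and 8.64 to 9.12 in early adenoma biopsies. Across the 12 arrays r with the C1q mean was 0.893, and 0.887 on the 8 arrays above 300. The 5 measured of 6 T cell markers did so as closely, with r of 0.880 on the 12 arrays and 0.910 on the 8. The 6 dendritic cell markers had 0.782 and 0.774, and the 8 mast cell markers 0.408 and 0.842. Neutrophil markers had -0.409 and -0.805, and B and plasma cell markers 0.265 and 0.125. Hepatocyte markers, which are not of immune cells, had 0.633 and 0.803. Mouse 2201 had the widest change of the macrophage list as well, 0.98, and mouse 1805 a change of -0.20. The part of these cells in the C1q values was not tested. The 5 genes most like the C1q mean over the 12 arrays, among 14224 searched, were Idua, a lysosomal hydrolase (r = 0.948), the protease inhibitor Cst3 (0.947), Pld4 (0.939), the macrophage pore-forming protein Mpeg1 (0.932) and the semaphorin receptor Plxnc1 (0.928).

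C4b, a C4 gene whose product is cleaved by the C1 complex, had the widest range of the 8 genes, 2.72 log2. It had 10.11, 8.62 and 9.56 log2 in late carcinoma biopsies of mice 2201, 3407 and 3413, against 8.03, 8.65 and 9.53 in their early biopsies. In mice 1755, 1803 and 1805 it had 9.80, 9.28 and 8.66 in late adenoma biopsies, against 8.67, 7.39 and 9.90 in the early ones. Mice 1755, 1803 and 2201 were thus 1.14 to 2.08 higher late, mouse 1805 was lower by 1.25 and mice 3407 and 3413 were within 0.03 of their early value. limma gave a late minus early difference of 0.69 in carcinoma (SE 0.645, adjusted p = 0.952) and 0.60 in adenoma tumors (SE 0.645, adjusted p = 0.691), neither larger than the spread between mice. The carcinoma value was 1.05 without mouse 3407, 1.02 without mouse 3413 and -0.0016 without mouse 2201. The adenoma value was 0.32 without mouse 1755, -0.054 without mouse 1803 and 1.52 without mouse 1805. With a term for the array numbering the carcinoma value was again -0.0016, since it is then also the mean change of mice 3407 and 3413. The adenoma value was -1.48 with that term and rests on mouse 2201 against mice 3407 and 3413. The direction is not settled. C4a is a near-identical copy of C4b, and whether either probe set also binds the other transcript was not tested. The C4a probe set ran from 7.03 to 7.75 log2 with r = 0.797 to C4b over the 12 arrays.

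Cfb, factor B of the alternative pathway, differed late minus early in sign between the tumors of different final reading, though not past the threshold. In carcinoma tumors it had 11.03, 10.05 and 10.55 log2 in the late biopsies of mice 2201, 3407 and 3413, against 10.53, 9.83 and 10.19 in the early ones. In adenoma tumors it had 9.77, 10.05 and 10.13 in the late biopsies of mice 1755, 1803 and 1805, against 10.64, 10.49 and 10.44 in the early ones. Each carcinoma tumor was thus higher late (by 0.51, 0.21 and 0.36) and each adenoma tumor lower (by 0.87, 0.45 and 0.31). The mean change was 0.36 ± 0.15 in carcinoma and -0.54 ± 0.29 in adenoma tumors (SD, n = 3 each). limma gave the difference of these changes as 0.91 (SE 0.172, 95% interval 0.49 to 1.32), rank 46 of 19938 genes by p, yet its adjusted p was 0.561. The changes of all 3 carcinoma tumors were above 0 and those of all 3 adenoma tumors below 0 in 1.19% of genes. Neither change passed by itself, with adjusted p = 0.952 in carcinoma and 0.114 in adenoma tumors. The 2 carcinoma pairs within the arrays above 300, of mice 3407 and 3413, gave 0.21 and 0.36. All 3 adenoma pairs cross that limit, so no adenoma value within it can be given.

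Of the anaphylatoxin receptors, C3ar1, which binds C3a on macrophages and other myeloid cells, varied with C1q. It had 10.67, 9.78 and 10.71 log2 in late carcinoma biopsies of mice 2201, 3407 and 3413, against 9.04, 10.14 and 10.39 in the early ones. In mice 1755, 1803 and 1805 it had 10.25, 9.74 and 9.62 in late adenoma biopsies, against 9.45, 9.32 and 9.44 in the early ones. It was higher late in 5 of 6 mice, the exception being mouse 3407, and the late and early adenoma groups did not overlap. The difference over all tumors was 0.50 (SE 0.226, limma adjusted p = 0.357). Without mouse 2201, which by itself was 1.63 higher late, it was 0.27. With a term for the array numbering it was -0.02 over all tumors, which is the mean change of mice 3407 and 3413 alone. In adenoma tumors it was then -1.18, a value that rests on mouse 2201 against mice 3407 and 3413. Without that term all 3 adenoma mice were higher late, and all 3 pairs cross the limit. Over the 12 arrays r of C3ar1 was 0.686 with C1qa, 0.793 with C1qb and 0.894 with C1qc. It was 0.894 with the macrophage and 0.789 with the endothelial marker mean. On the 8 arrays above 300 the last 2 were 0.940 and 0.426.

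C5ar1, the receptor for C5a on neutrophils and macrophages, was the only 1 of the 8 genes to pass the test in any comparison. In adenoma tumors it had 8.87, 8.89 and 9.48 log2 in the late biopsies of mice 1755, 1803 and 1805, against 7.65, 7.77 and 7.99 in the early ones. It rose by 1.27, or 2.42-fold (SE 0.134, limma adjusted p = 0.0462), by 1.21, 1.12 and 1.49 in the 3 mice. In this comparison 0.125% of genes passed, 0.0351% higher and 0.0903% lower late. This difference was known when the genes were chosen and is given as a description. In carcinoma tumors C5ar1 had 9.13, 8.92 and 9.17 in the late biopsies of mice 2201, 3407 and 3413, against 8.53, 8.73 and 9.19 in the early ones, a difference of 0.26 (SE 0.134, adjusted p = 0.952), which was 0.084 without mouse 2201 and 0.40 without mouse 3413. Both late groups lay together, at 9.07 ± 0.13 in carcinoma and 9.08 ± 0.35 in adenoma biopsies (SD, n = 3 each), with a 95% interval of the difference from -0.43 to 0.42.

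Early biopsies of tumors later read as carcinoma had more C5ar1, though the difference did not pass. It averaged 8.82 ± 0.34 in early biopsies of tumors later read as carcinoma and 7.81 ± 0.17 in those later read as adenoma (SD, n = 3 each), without overlap. The difference was 1.01 (SE 0.192), rank 34 of 19938 genes by p, with a limma adjusted p of 0.177. Markers stood higher in the same biopsies: 10 of 11 neutrophil markers (median difference 1.08, 5 at an unadjusted p under 0.05 in either direction), 7 of 7 endothelial (0.88, 5) and 7 of 7 fibroblast markers (0.87, 3). So did 7 of 9 acute phase and inflammation genes (1.11, 6). Of all 19938 genes 11974 were above 0, and 12% had such a p, 7.06% higher. Only 1 of 9 epithelial and 1 of 6 B and plasma cell markers were higher. The part of these cells and genes in the C5ar1 difference was not tested. The difference of the changes, carcinoma minus adenoma, was -1.02 (SE 0.189, adjusted p = 0.561), and it rests on the same early arrays. The early arrays of mice 3407 and 3413 are numbered above 300 and the other 4 below. Among the 4 arrays below 300, mouse 2201 had 8.53 and the 3 adenoma mice 7.65 to 7.99. With a term for the numbering the early difference was 0.70 (SE 0.234, adjusted p = 0.461), and the adenoma change was 0.76 (SE 0.235, adjusted p = 0.845). Both values with this term rest on mouse 2201 against mice 3407 and 3413. The call was also lost without mouse 1755, 1803, 1805, 3407 or 3413, at adjusted p = 0.0659 to 0.131, with a change of 1.17 to 1.35.

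Markers of several cell types stood higher beside C5ar1 in the late adenoma biopsies. The 11 measured of 11 neutrophil markers had a mean level of 8.53 to 9.64 log2 in late adenoma, against 7.42 to 8.09 in early adenoma biopsies, with only Ngp under the 25th percentile of genes. By gene, 8 of 11 were higher late on average, and Ltf (-0.52), Ly6g (-0.29) and Mpo (-0.10) were lower. The 7 measured of 7 endothelial markers, none under that percentile, had 10.17 to 10.47 in late adenoma, against 8.54 to 9.05 in early adenoma biopsies. The 7 measured of 7 fibroblast markers, none under it, had 10.86 to 11.51 in late adenoma, against 9.35 to 10.52 in early adenoma biopsies. The 2 measured of 5 erythroid markers differed by 1.04, 1.88 and 4.03 in mice 1755, 1803 and 1805. Macrophage and monocyte markers differed by 0.37, 0.18 and -0.20 in the same mice. The part of these cells in the C5ar1 values was not tested. On the 8 arrays above 300, r of C5ar1 was 0.623 with the erythroid, 0.441 with the endothelial, 0.363 with the neutrophil, 0.216 with the macrophage and -0.084 with the fibroblast marker mean. It was 0.481 with that of B and plasma cells and 0.631 with that of acute phase and inflammation genes. The arrays below 300 lie apart, so no r of C5ar1 over all 12 is given for these lists. By r over the 12 arrays, among 14231 genes searched, the genes most like C5ar1 were Ripor1 (0.977), the lipid scramblase Ano6 (0.973), Adgrf5 (0.958), Ldlrad4 (0.953) and the kinase-like scaffold Peak1 (0.950). On the 8 arrays above 300 these had r from 0.726 for Adgrf5 to 0.941 for Ldlrad4.

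**Figure D2:**
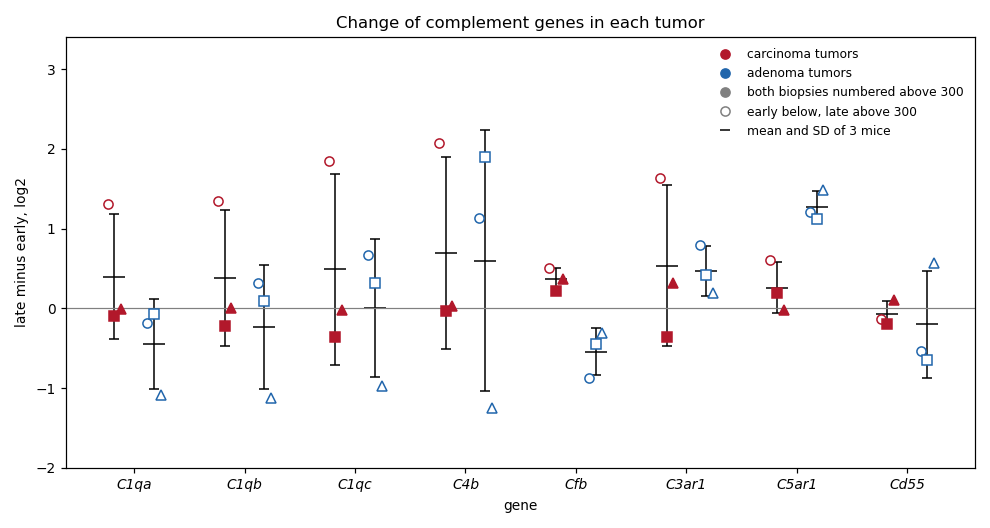
Late minus early difference (log2) of each gene in each tumor, carcinoma left of adenoma, with the mean and SD of 3 mice; open points are pairs whose early array is numbered below 300 and late array above it. Cfb lies above 0 in all 3 carcinoma tumors and below 0 in all 3 adenoma tumors, C5ar1 is between 1.12 and 1.49 in adenoma tumors, and mice 2201 and 1805 lie at opposite ends for the C1q chains.

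Cd55, the membrane inhibitor of the convertases, separated the tumors by final reading at both times. It had 9.57, 9.36 and 9.68 log2 in late carcinoma biopsies of mice 2201, 3407 and 3413, against 10.32, 9.75 and 11.03 in late adenoma biopsies of mice 1755, 1803 and 1805. In the early biopsies it had 9.71, 9.55 and 9.58 in tumors later read as carcinoma, against 10.85, 10.40 and 10.46 in tumors later read as adenoma. The highest of 6 carcinoma arrays, 9.71, lay under the lowest of 6 adenoma arrays, 9.75, though by only a small margin set by mouse 1803. Over all biopsies 2.16% of genes kept the readings apart in this way. limma gave -0.83 for carcinoma minus adenoma in late biopsies (SE 0.268, adjusted p = 0.401) and -0.96 in early biopsies (SE 0.268, adjusted p = 0.284). Neither passed, and without mouse 1803 the late difference did, at -1.13 (adjusted p = 0.0461), while without mouse 1805 it was -0.49. The late arrays are all numbered above 300. The change from early to late was -0.07 ± 0.16 in carcinoma and -0.20 ± 0.67 in adenoma tumors (SD, n = 3 each). In adenoma tumors mice 1755 and 1803 were lower late and mouse 1805 higher.

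Epithelial markers moved with Cd55. The 9 of 9 measured epithelial markers had a mean level of 11.30 to 11.72 log2 in late carcinoma, against 11.76 to 12.63 in late adenoma biopsies. In early biopsies they had 11.50 to 12.06 in tumors later read as carcinoma, against 12.00 to 12.47 in those later read as adenoma. Across the 12 arrays r of Cd55 with this mean was 0.907, and it was 0.943 on the 8 arrays above 300. On those 8 arrays it was also 0.827 with the neutrophil and 0.824 with the erythroid marker mean. Over the 12 arrays these were 0.130 and 0.335. The 9 markers differed unevenly. Carcinoma minus adenoma in late biopsies, 0 of 9 were above 0, with -2.95 for Krt20 and -1.81 for Cdx2. The values were -0.03 for Epcam, -0.12 for Krt18, -0.16 for Cdh1 and -0.22 for Krt8. The mean of the list is thus not a measure of the epithelial share alone. The part of the epithelial share, or of the state of these cells, in the Cd55 values was not tested. The genes most like Cd55, among 14231 searched, were Ly6g2 (r = 0.970), Epb41l4b (0.962), the gamma-secretase subunit Aph1a (0.958), the adhesion molecule Ceacam20 (0.957) and the lipoprotein gene Apob (0.957). The paralog Cd55b, a second decay-accelerating factor gene of the mouse, ran from 5.75 to 6.61 log2 with r = 0.489 to Cd55.

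**Figure D3:**
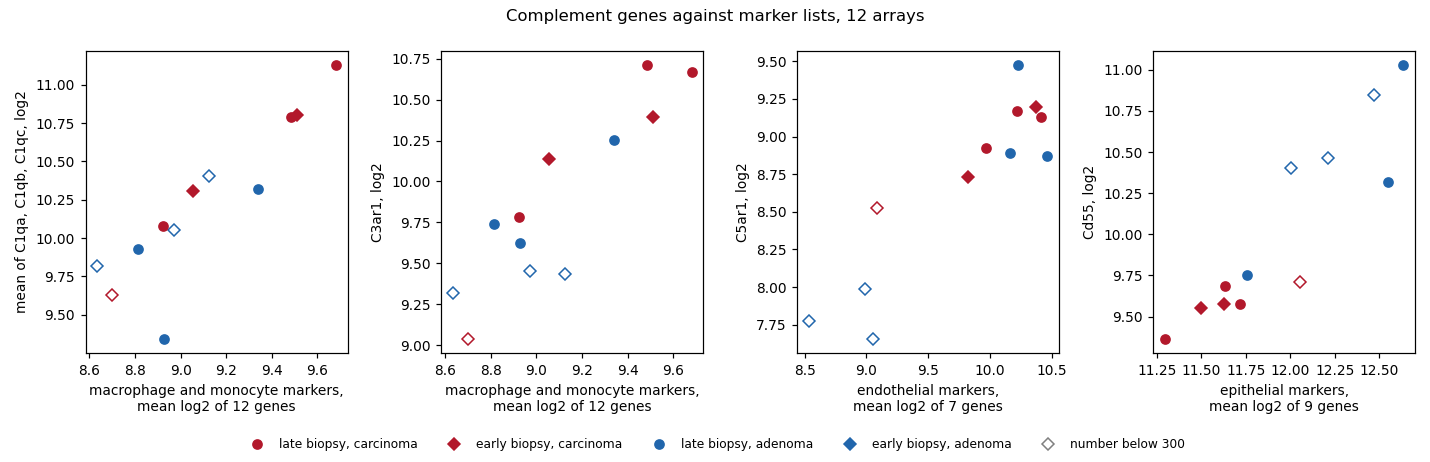
Complement genes (y axis, log2) against the mean log2 level of a marker list (x axis) on the 12 arrays, circles for late and diamonds for early biopsies, open for arrays numbered below 300. The C1q mean and C3ar1 climb with macrophage and monocyte markers and Cd55 with epithelial markers, and C5ar1 separates the 3 early adenoma arrays (7.65 to 7.99) at low endothelial levels from the rest.

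limma called 1 of 8 in late against early adenoma biopsies, where 0.125% of all genes were called, and none in the other 5 comparisons, where 0% were. At an unadjusted p under 0.05, late against early over all tumors, there was 1 gene, C5ar1, among 14.7% of all genes in either direction and 5.68% higher. In carcinoma tumors there was 1, Cfb, beside 4.3% of all genes (1.7% higher and 2.61% lower). In adenoma tumors there were 2, C5ar1 higher beside 7.38% of all genes and Cfb lower beside 10.7%, together 18%. For the difference of the changes there were 2, Cfb above 0 beside 3.68% of all genes and C5ar1 below 0 beside 3.37%, together 7.04%. Carcinoma against adenoma in late biopsies gave 3, C1qa and Cfb higher beside 6.74% of all genes and Cd55 lower beside 5%, together 11.7%. Early biopsies gave 2, C5ar1 higher beside 7.06% and Cd55 lower beside 4.9%, together 12%.

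Groups that did not overlap were counted in the same way. Late against early adenoma biopsies gave 3 of 8 genes beside 15.3% of all genes, C5ar1 and C3ar1 higher (7.42% of all genes) and Cfb lower (7.83%). In carcinoma tumors there were none of 8 beside 7.95% of all genes, of which 2.68% were higher and 5.27% lower. Between readings there was 1 in late biopsies, Cd55 lower, beside 14.9% of all genes and 6.12% lower. Early biopsies gave 2, C5ar1 higher beside 10.7% and Cd55 lower beside 7.31%, together 18.1%. The changes did not overlap for 2, Cfb and C5ar1, beside 13.1% of all genes. With 8 genes, 1 gene more or less moves these shares by 12.5%. The median difference of the 8 genes was 0.54 for carcinoma minus adenoma in late biopsies, beside 0.02 over all genes, and 0.12 beside 0.04 in early biopsies. Late minus early it was 0.39 in carcinoma tumors beside -0.03 over all genes, and -0.10 in adenoma tumors beside -0.01.

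**Figure D4:**
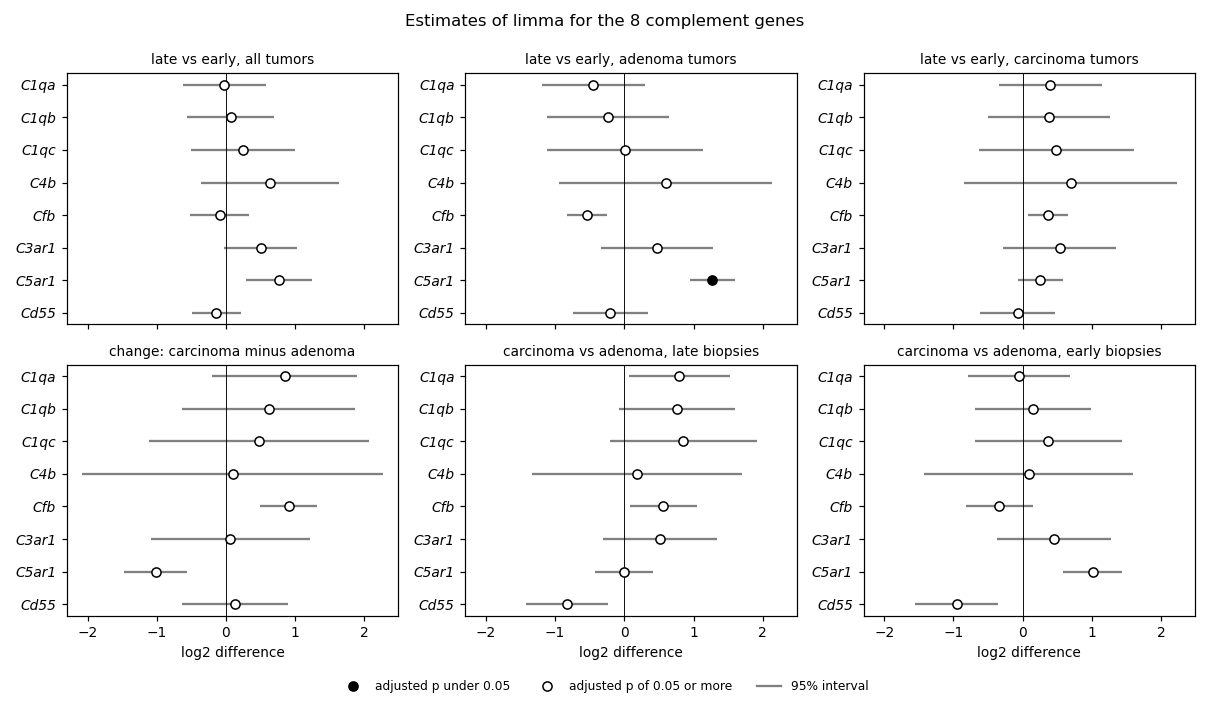
Estimates of limma (log2 difference, points) with 95% intervals (lines) for the 8 genes in 6 comparisons, first-named group minus second; filled points have an adjusted p under 0.05. The only filled point is C5ar1 in late against early adenoma tumors (1.27).

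Of the other complement genes, 43 of 49 listed were measured, and limma called none in any comparison. Late minus early, 25 of 43 were above 0 in carcinoma tumors and 25 of 43 in adenoma tumors. Over all 19938 genes 7933 were above 0 in carcinoma and 9412 in adenoma tumors. At an unadjusted p under 0.05 there were 3 higher and 0 lower late in carcinoma tumors (4.3% of all genes), and 8 higher and 3 lower late in adenoma tumors (18%). Carcinoma minus adenoma, 2 were higher and 1 lower in late biopsies (11.7% of all genes), and 6 were higher and 2 lower in early biopsies (12%). The medians lay at 0.02 and 0.04 for the changes in carcinoma and adenoma tumors, beside -0.03 and -0.01 over all genes.

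The initiating protease gene Masp1, of the lectin pathway, had the smallest p of the 43 over all tumors. It had 8.29, 8.97 and 8.46 log2 in late carcinoma biopsies of mice 2201, 3407 and 3413, against 7.34, 7.97 and 8.11 in the early ones. In mice 1755, 1803 and 1805 it had 8.72, 7.48 and 8.18 in late adenoma biopsies, against 7.39, 7.03 and 7.82 in the early ones. All 6 mice were higher late, by 0.74 on average (SE 0.142, limma adjusted p = 0.206), and the direction was shared by 6 of 6 mice in 7.77% of genes. C1ra, a protease of the C1 complex, was 0.80 higher late in carcinoma tumors (SE 0.288, adjusted p = 0.952). C2, cleaved by the C1 complex, had a change in carcinoma minus that in adenoma tumors of 0.62 (SE 0.215, adjusted p = 0.653). Hc, the gene of C5, differed by -0.22 between carcinoma and adenoma in late biopsies (SE 0.086, adjusted p = 0.409), at a mean under the 25th percentile.

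The inhibitors Cfi and C4bp had lower means late. Cfi, the protease factor I that degrades C3b and C4b, had 9.99, 8.87 and 9.67 log2 in late carcinoma biopsies of mice 2201, 3407 and 3413, against 8.79, 8.46 and 7.29 in late adenoma biopsies of mice 1755, 1803 and 1805. These groups did not overlap, with a difference of 1.33 (SE 0.40, limma adjusted p = 0.401). In this comparison 14.9% of all genes did not overlap, 8.77% being higher in carcinoma. Late minus early, Cfi differed by -0.55 over all tumors (SE 0.144, adjusted p = 0.243). C4bp, the fluid-phase inhibitor that binds C4b, had 8.33, 7.63 and 8.07 in late adenoma biopsies, against 9.85, 9.22 and 8.77 in early ones, a difference of -1.27 (SE 0.231, adjusted p = 0.0874). The membrane inhibitor Cr1l, known in mice as Crry, was 0.39 lower in early biopsies of tumors later read as carcinoma than in those later read as adenoma (SE 0.11, adjusted p = 0.276), and differed by 0.19 late minus early in carcinoma tumors. Vtn, vitronectin, which binds the terminal complex, had the smallest p of the 43 between early biopsies. It had 6.72, 6.83 and 6.70 in early biopsies of tumors later read as carcinoma, against 6.28, 6.53 and 6.39 in those later read as adenoma, a difference of 0.35 (SE 0.0913, adjusted p = 0.269), at a mean under the 25th percentile. Its change in carcinoma minus that in adenoma tumors was -0.44 (SE 0.131, adjusted p = 0.621). Of the early arrays only those of mice 3407 and 3413 are numbered above 300. The early differences of Cr1l and Vtn can therefore not be fully told apart from the numbering. The membrane cofactor gene Cd46 was 0.31 higher late in carcinoma tumors (SE 0.132, adjusted p = 0.952) and 0.31 higher in carcinoma than in adenoma in late biopsies (SE 0.143, adjusted p = 0.439), with the late biopsy of mouse 3413 highest at 7.71. Cd55b differed by 0.27 late minus early in carcinoma tumors (SE 0.0852, adjusted p = 0.952).

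The receptors named by lowest p in late against early adenoma biopsies, Cd93, Itgam and C5ar2, were each higher late in 3 of 3 mice. All 3 adenoma mice were higher late in 17% of all genes. Cd93, once described as a C1q receptor and found on endothelial and myeloid cells, had 11.08, 10.94 and 11.31 log2 in late adenoma biopsies of mice 1755, 1803 and 1805, against 9.48, 8.31 and 9.35 in early ones. The difference was 2.06 (SE 0.322, limma adjusted p = 0.0722), and it was 0.37 in carcinoma tumors. Itgam, the alpha chain of complement receptor 3 on myeloid cells, had 9.15, 8.70 and 9.74 in late adenoma biopsies, against 8.40, 8.25 and 8.27 in early ones, a difference of 0.89 (SE 0.194, adjusted p = 0.109). C5ar2, the other C5a receptor, differed by 0.34 in adenoma tumors (SE 0.0931, adjusted p = 0.15) and by 0.40 between early biopsies of tumors later read as carcinoma and as adenoma (SE 0.123, adjusted p = 0.292). Among early arrays only those of mice 3407 and 3413, both of carcinoma tumors, are numbered above 300. Vsig4, a C3b receptor of tissue macrophages, differed by -0.50 in carcinoma and 0.75 in adenoma tumors, late minus early, a difference of -1.24 between the changes (SE 0.378, adjusted p = 0.621), at a mean level under the 25th percentile of genes. Itgax, the alpha chain of complement receptor 4, had 8.35, 8.07 and 8.33 in late adenoma biopsies, against 8.57, 8.56 and 9.25 in early ones, a difference of -0.54 (SE 0.395, adjusted p = 0.535). In late biopsies Itgax was 0.90 higher in carcinoma than in adenoma (SE 0.393, adjusted p = 0.422). Itgb2, the beta chain that complement receptors 3 and 4 share, was 0.44 higher late over all tumors, in 6 of 6 mice (SE 0.123, adjusted p = 0.253). Cr2, the receptor for C3d on B cells, differed by -1.35 on average in adenoma tumors (SE 0.817, adjusted p = 0.448), at a mean under the 25th percentile. It was higher late in 2 of those 3 mice and lower in 1. Itgax in adenoma tumors and Cr2 were chosen after their values were seen. None of these passed. The mean levels of the neutrophil, endothelial, fibroblast and erythroid markers given beside C5ar1 stood higher in the same late adenoma biopsies.

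**Figure D5:**
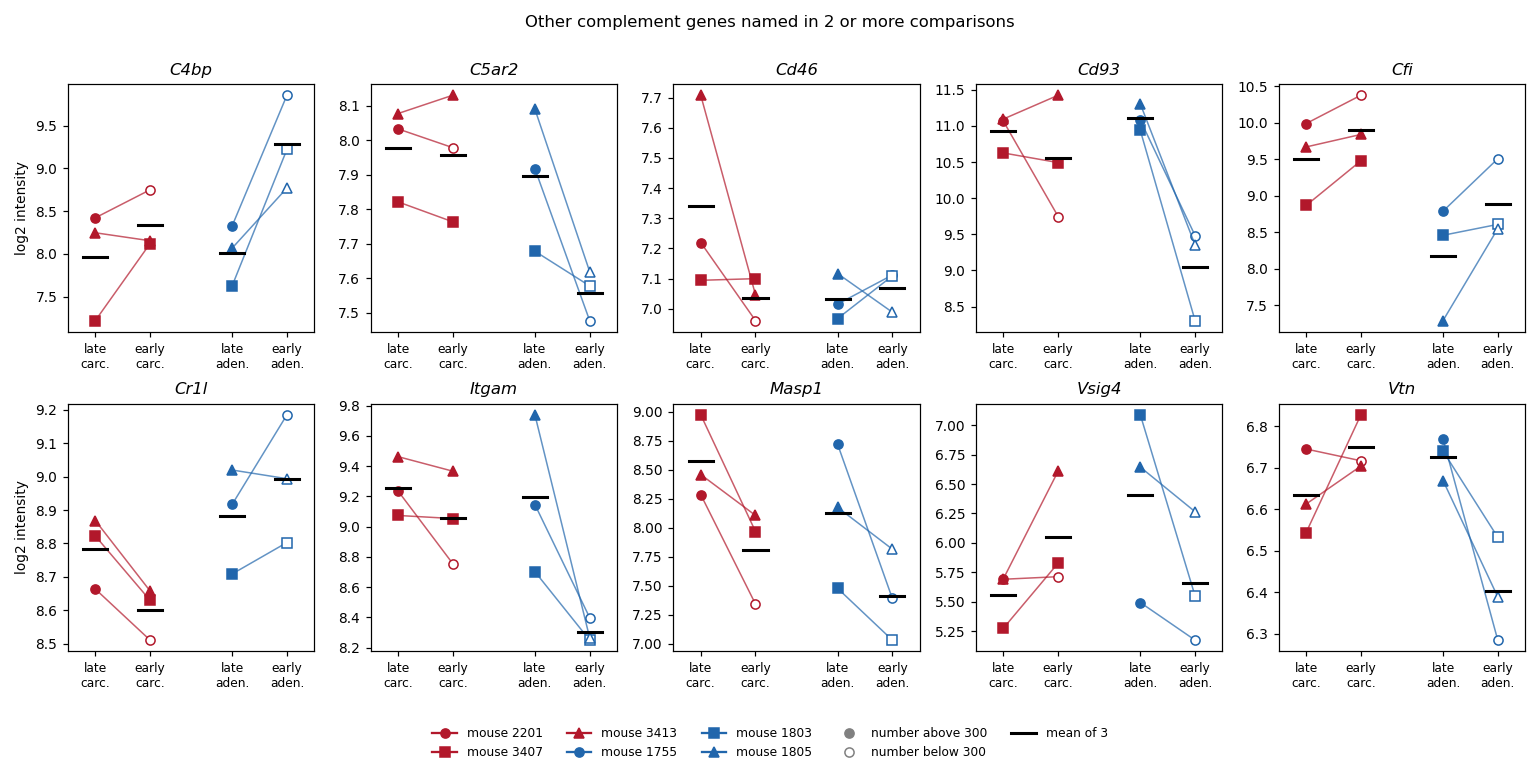
Log2 intensity of the 10 other complement genes named in 2 or more comparisons, late biopsies left of early ones and carcinoma tumors left of adenoma tumors, with lines joining the biopsies of a mouse and bars at the mean of 3. Cd93 and Itgam lie higher in all 3 late adenoma biopsies than in the early ones, Masp1 is higher late in 6 of 6 mice, and C4bp is lower in all 3 late adenoma biopsies.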

How the data were processed

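RNA of 12 tumor biopsies, 300 ng each, was labelled for Affymetrix mouse gene arrays, per the labels' protocols. The authors' deposited values were read as log2 intensities of 35557 probe sets from their range, since no unit is given. Their summarisation and normalisation are not given in the sources used here. Of the probe sets, 21789 carry 1 gene symbol in the platform annotation, 1621 several and 12147 none. Those with 1 symbol gave 19938 genes, with the highest mean probe set per gene. Symbols were checked by gene ID against RefSeq, which changed 0 of 19856 matched.

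Tests used limma 3.58.1 under R 4.3.3 (2-sided moderated test, Benjamini-Hochberg adjustment over all 19938 genes, threshold 0.05, no filter on dim genes). Late against early was fitted with mouse as a fixed block, over all tumors (5 residual degrees of freedom) and by final reading in 1 fit (4). Carcinoma and adenoma were compared in a fit of 4 groups with mouse as a random block (8, consensus correlation 0.286). The early and late arrays of a mouse come from 1 animal, and their deviations correlated at 0.110 to 0.527, over 0.1 in 6 of 6 pairs. Errors are SE of limma or ± SD over mice. The code was tested on simulated data. Alternatives were quantile normalisation, the mean probe set per gene, a filter on dim genes, a trended and robust prior, no mouse block, terms for sample number and (between readings) sex, and leaving out each mouse.

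The 8 measured genes, the marker lists, the 49 other complement genes and the alternatives were chosen with earlier results of these data known. All 8 are named throughout. Of the others, at most 5 a comparison are named, taken by lowest unadjusted p, and 2 more receptor values were added after the values were seen. Likeness lists give the 5 genes with the highest r among genes above the 25th percentile of means, predicted and olfactory genes left out. The motifs searched in promoters were chosen after the values were seen.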

Additional observations from a re-analysis of the deposited data

Results flagged for a closer look

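Cfb was singled out because all 3 carcinoma tumors changed one way and all 3 adenoma tumors the other. The change in carcinoma minus that in adenoma tumors was 0.91 log2, at a limma adjusted p of 0.561 over all genes, and 2.9% of all genes had changes split by final reading in either direction. No array lay far enough from the others in any of the 24 sets checked (8 genes in late biopsies, early biopsies and changes) to be singled out.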

How the results depend on the processing

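limma called 25 genes in late against early adenoma biopsies, with 13 called without genes below the 25th percentile of means, 2 without mouse as a block and 0 with a term for sample numbers below 300 (1142 at an unadjusted p under 0.05). Leaving out each mouse in turn gave 0 to 78 calls there, 0 to 2 over all tumors (2 without mouse 3407) and 0 to 1 in carcinoma tumors (1 without mouse 1805). It gave 0 to 395 for carcinoma against adenoma in late biopsies (395 without mouse 1803, Cd55 among them at -1.13), 0 to 67 in early biopsies (67 without mouse 1803, 3 without mouse 2201) and 0 for the difference of the changes (at an unadjusted p under 0.05, 808 to 1690). A mouse left out can take 1 group to 2 arrays.

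The C5ar1 call in adenoma tumors was kept with the mean of all probe sets of a gene, with a trended and robust prior and without mouse 2201. It was lost after quantile normalisation (1.24, adjusted p = 0.0563), without dim genes (1.27, adjusted p = 0.0538), without the replicate block of mouse (1.27, adjusted p = 0.104) and with the numbering term (0.76). Without 1 mouse it was 1.17 to 1.35, with adjusted p from 0.0301 to 0.131. The replicate block changed no other call on the 8 genes. Without dim genes fewer genes were tested. The cause of the other losses was not tested.

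Signs reversed in 17 of the 304 values of the 8 genes under settings that kept all mice, all 17 with the numbering term. Over all tumors and in carcinoma tumors, the late minus early value is then the mean change of mice 3407 and 3413 alone. Both are therefore the same value and hold no adenoma tumor. In adenoma tumors and between early biopsies, the term rests on mouse 2201 against mice 3407 and 3413. C1qa was then -0.055 in carcinoma tumors, late minus early. C1qb was -0.11 over all and in carcinoma tumors, and -0.55 for carcinoma minus adenoma in early biopsies. C1qc was -0.20 over all and in carcinoma tumors, -2.04 in adenoma tumors and -0.66 between early biopsies. C3ar1 was -0.017 over all and in carcinoma tumors, -1.18 in adenoma tumors and -0.47 between early biopsies. C4b was -0.0016 over all and in carcinoma tumors, -1.48 in adenoma tumors and -0.86 between early biopsies, and Cfb was 0.29 over all tumors. The cause was not tested.

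Leaving out 1 mouse also turned signs. Late minus early over all tumors, C1qa ran from -0.29 to 0.19, C1qb from -0.18 to 0.31, C1qc from -0.075 to 0.49 and Cfb from -0.21 to 0.066. In carcinoma tumors C1qa ran from -0.055 to 0.65, C1qb from -0.11 to 0.68, C1qc from -0.20 to 0.91, C3ar1 from -0.017 to 0.98 and C4b from -0.0016 to 1.05. In adenoma tumors C1qb ran from -0.52 to 0.21, C1qc from -0.33 to 0.50, C4b from -0.054 to 1.52 and Cd55 from -0.59 to 0.020. For the difference of the changes C1qc ran from -0.20 to 0.91, C3ar1 from -0.49 to 0.51, C4b from -0.82 to 0.75 and Cd55 from -0.094 to 0.52. Carcinoma minus adenoma in late biopsies, C4b ran from -0.16 to 0.59, C5ar1 from -0.11 to 0.19 and Cd55 from -1.13 to -0.49. In early biopsies C1qa ran from -0.29 to 0.18, C1qb from -0.10 to 0.42 and C4b from -0.55 to 0.71.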
